A study of Brassica rapa subsp. chinensis with 2 samples.

Results

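Tyrosine aminotransferases and the cystine lyase CORI3 form 1 family of enzymes, and 14 of the 33087 genes in the stem expression table belong to it by name. A gene was counted as a member where the description of its best Swiss-Prot match, as the authors' table gives it, named CORI3, an aminotransferase TAT or tyrosine aminotransferase. The best match was TAT4 for 5 genes, TAT1 for 3, CORI3 for 2, TAT for 2, TAT2 for 1 and TAT3 for 1. All 14 members carried the KEGG orthology term K00815 for tyrosine aminotransferase. That term was given to 15 genes in all, the other being *BraA03g054450.3C*, which matches SUR1. Binding of pyridoxal phosphate, the cofactor of aminotransferases and of many lyases, was among the GO terms of 13 members. The family was chosen by the difference between the line means of a neighbouring pair in it, *BraA09g026980.3C* and *BraA09g026970.3C*. Its values are therefore a description, and no test was run on them.

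The stems of ‘FT’, a doubled-haploid line of Chinese cabbage with epidermal wax, and of ‘CX001’, a wax-less doubled-haploid line of flowering Chinese cabbage, were compared. The methods give bolting as the stage of other RNA samples and do not repeat it for the sequenced stems. Both lines were vernalised after germination, and the methods describe no other treatment. Each was represented by 3 replicate libraries, which the study's methods do not assign to separate plants. The lines come from different crop types, so effects of the wax-less mutation on any gene cannot be told apart from other differences between the genomes. Each line is 1 genotype, and the RNA is that of whole stems, in which fewer cells of a type and less RNA per cell cannot be told apart.

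The table gives the authors' mean of normalised counts for each line. A read in 1 library added a fixed amount to a mean, 0.321, 0.321 and 0.351 in ‘FT’ and 0.315, 0.322 and 0.357 in ‘CX001’. From these steps all 32662 ‘FT’ means and all 32601 ‘CX001’ means under 5000 could be split in a single way into whole reads per library. The split genes held 11605379 to 12245728 reads per library in ‘FT’ and 11298450 to 12714070 in ‘CX001’. The libraries are numbered here by the value of 1 read, because the table does not name them. *BraA09g066480.3C* is the CER1 alkane-synthesis gene that ‘CX001’ is described as having lost. Its mean was 16922 in ‘FT’ and 14.3 in ‘CX001’.

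Tyrosine aminotransferase moves the amino group of tyrosine to a keto acid and leaves 4-hydroxyphenylpyruvate. That compound is the starting point of homogentisate, from which plants make tocopherols and plastoquinone or which they break down to fumarate. CORI3 of *Arabidopsis* belongs to the same enzyme family but splits cystine, the oxidised dimer of cysteine, and its gene is known for induction by jasmonate, wounding and the bacterial jasmonate mimic coronatine. SUR1, a further relative, is the carbon-sulphur lyase of glucosinolate synthesis. The TAT1 to TAT4 names stand for probable aminotransferases, so a match to them does not give a substrate.

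In stems the family was carried by few genes. Of the members, 9 reached a mean of 10 in 1 line or both, and the other 5 stayed under it. Among the 9, 5 differed by over 2-fold between the line means, 2 being higher and 3 lower in ‘CX001’. That is 55.6% of them, where 34.2% of all 25993 genes past the same minimum differed by over 2-fold (16.7% higher and 17.4% lower). The choice of the family rests on the same contrast, so nothing is read from this gap. The median log2 ratio of ‘CX001’ over ‘FT’ was 0.09 over the 9 members and 0.01 over all genes past the minimum. The median size of the log2 ratio, sign ignored, was 1.36 and 0.63. In 5 members the libraries of the lines did not overlap, beside 59.2% of all genes with both means split. ‘CX001’ was above in 3 members (29.7% of all genes) and below in 2 (29.5%).

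**Figure D1:**
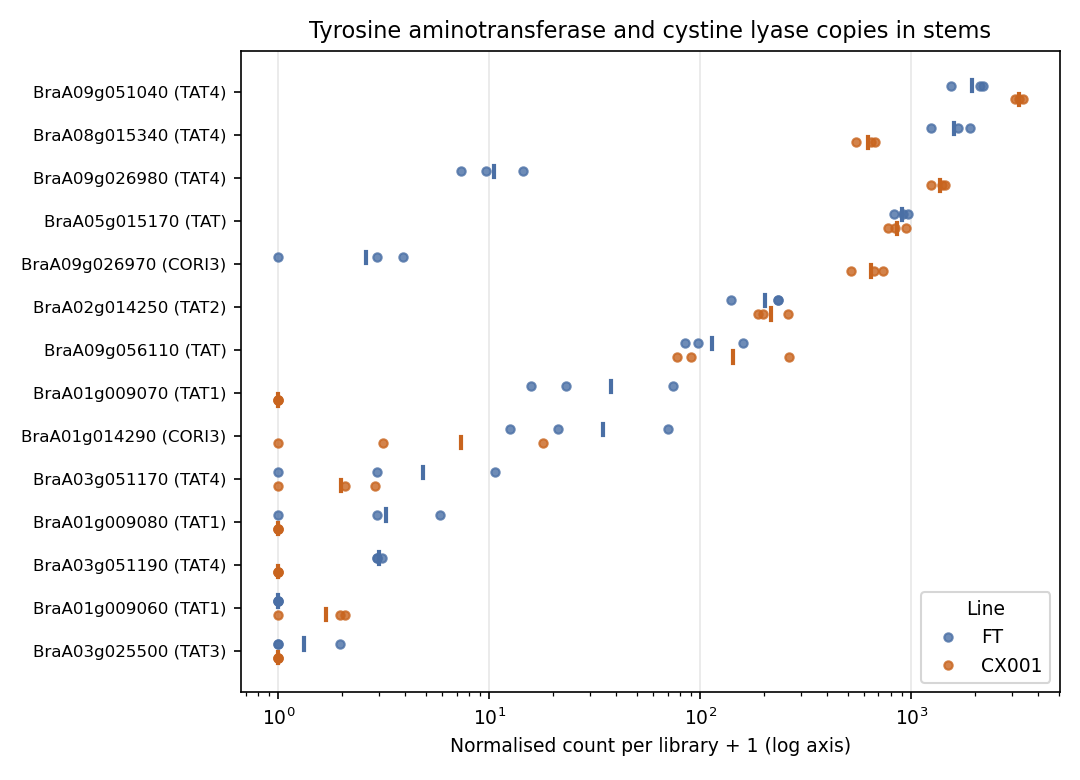
Normalised count per library plus 1, on a log axis, for each of the 14 members. Points are the 3 libraries of a line and short bars the authors' mean. The pair *BraA09g026980.3C* and *BraA09g026970.3C* lies at 13.5 or below in every ‘FT’ library and at 520 or above in every ‘CX001’ library, and the libraries mix in *BraA05g015170.3C*, *BraA09g056110.3C* and *BraA02g014250.3C*.

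The pair on chromosome A09 drew few reads in ‘FT’ stems and many in ‘CX001’ stems. CER1, described as lost from ‘CX001’, still had a mean of 14.3 there, from 6, 12 and 24 reads. The ‘FT’ means of the pair lie below that, and whether they are stray reads was not tested. Nor was it tested whether the ‘FT’ copies are absent or differ from the reference sequence. *BraA09g026980.3C*, a TAT4 match, lies at bases 18343098 to 18346127 on the minus strand, in the coordinates of the table, with a coding length of 909 bases. Its normalised counts were 8.66, 13.5 and 6.32 in the ‘FT’ libraries and 1395, 1239 and 1451 in the ‘CX001’ libraries. All ‘CX001’ libraries stood far above all ‘FT’ libraries, with 9, 14 and 6 reads in ‘FT’ and 1284 to 1478 in ‘CX001’. The authors' means were 9.49 and 1362, a log2 ratio of 7.17, or 144-fold, with a 95% exact interval for counting error of 99.8 to 215.

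*BraA09g026970.3C*, a CORI3 match on the same strand, lies at bases 18339334 to 18340389 with a coding length of 591 bases. It gave 3, 2 and 0 reads in the ‘FT’ libraries and 708, 539 and 688 in the ‘CX001’ libraries. The ‘FT’ signal was thus close to none in each library, and no library of 1 line came near the other line. As normalised counts the ‘CX001’ libraries stood at 668, 520 and 737. The authors' means were 1.60 and 642, a log2 ratio of 8.64, or 400-fold (interval 171 to 1233). With 5 reads behind the ‘FT’ mean, this ratio moves with single libraries, to 667-fold (184 to 5507) without ‘FT’ library 1 and to 267-fold (114 to 822) without ‘FT’ library 3. Of the 25993 genes past the minimum, 0.646% were over 100-fold higher in ‘CX001’, and the pair was among these 168.

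The models of the pair are separated by 2708 bases and together span 6794 bases. In the RefSeq annotation of the *B. rapa* assembly CAAS_Brap_v3.01, both fall inside a single protein-coding gene, LOC103833946. The positions of the table and of that annotation overlapped for 99.6% of the 20880 genes that share an accession. The summed coding length of the models is 1500 bases. Reads of *BraA09g026970.3C* per read of *BraA09g026980.3C* were 0.479, 0.420 and 0.508 in the ‘CX001’ libraries, beside 0.650 for the ratio of their coding lengths. In ‘FT’ the ratio was 0.172 over 34 pooled reads, with an interval of 0.0521 to 0.450 that takes in the lowest of the ‘CX001’ ratios. Whether the stem RNA holds 1 transcript or more from this stretch was not tested. With the pair counted as 1 gene, 4 of 8 members differed by over 2-fold, beside 34.2% of all genes.

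Among the 5 genes on each side of the pair, 5 stayed within 2-fold, 2 were higher in ‘CX001’ (16.7% of all genes were), none was lower and 3 had means under 10 in both lines. The closest neighbour on one side, *BraA09g026960.3C*, a match of the riboflavin-synthesis phosphatase PYRP2, had means of 564 in ‘FT’ and 444 in ‘CX001’. The closest on the other, *BraA09g027010.3C*, a receptor-like kinase match, had 18.7 and 18.6. The higher ones were *BraA09g026950.3C*, an FTIP1 match with 9.55 and 26.4, and *BraA09g027040.3C*, which has no match in the table, with 4.61 and 51.3. *BraA09g026940.3C*, matching the glutathione peroxidase GPX6, was well read in both lines at 1394 and 901, as was the translation factor match *BraA09g027030.3C* at 2148 and 3022.

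**Figure D2:**
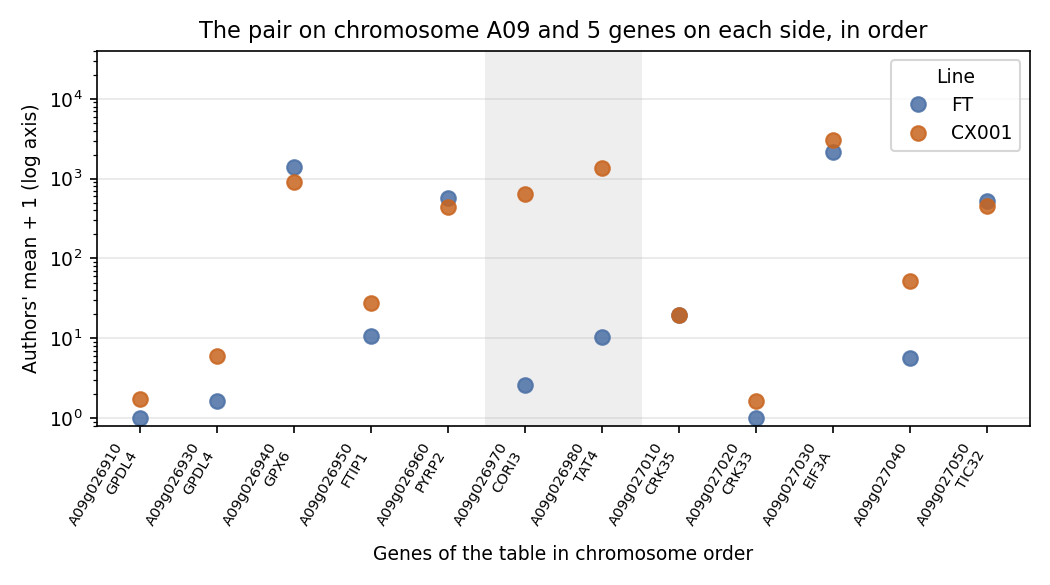
Authors' mean plus 1, on a log axis, in each line for the pair (shaded) and the 5 genes on each side in chromosome order. The lines are far apart in the pair and close in most of the neighbours, such as *BraA09g026960.3C* with 564 and 444.

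The other well-read TAT4 matches were opposite in direction. *BraA08g015340.3C* (chromosome A08, 12650443 to 12652364, plus strand, coding length 1272 bases) had normalised counts of 1896, 1237 and 1670 in ‘FT’ and 647, 548 and 672 in ‘CX001’. There was no overlap, and every ‘CX001’ library was the lower. Its means of 1601 and 622 gave a log2 ratio of -1.36. The ‘CX001’ level was 0.389 of that in ‘FT’ (0.368 to 0.410 by counting error alone). Single libraries moved it further, to 0.428 without ‘FT’ library 1 and to 0.349 without ‘FT’ library 2. RefSeq also has WRKY29 overlapping this span, and the handling of reads from overlapping genes or of strand is not given in the sources used here.

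*BraA09g051040.3C* was the best-read member in both lines. This TAT4 match (chromosome A09, 37647360 to 37649324, plus strand, coding length 1305 bases) gave 2185, 1551 and 2111 normalised counts in ‘FT’ and 3372, 3093 and 3245 in ‘CX001’. All ‘CX001’ libraries were again above all ‘FT’ libraries, here by a small margin against the pair. The means were 1949 and 3236, a log2 ratio of 0.73, or 1.66-fold, and so within the 2-fold limit. Per kilobase of coding length, the ‘CX001’ mean of this gene was 2480, that of *BraA09g026980.3C* 1498, that of *BraA09g026970.3C* 1086 and that of *BraA08g015340.3C* 489. In ‘FT’ the same order read 1494, 10.4, 2.71 and 1259.

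A pair of TAT4 matches on chromosome A03 was hardly read. *BraA03g051170.3C* (26354816 to 26356791, plus strand) had 10, 2 and 0 reads in ‘FT’ and 2, 0 and 1 in ‘CX001’, so the lines overlapped. Its ratio of 0.256 had a counting interval of 0.0464 to 0.949, and RefSeq calls the place a pseudogene, LOC103861408. *BraA03g051190.3C* (26374336 to 26375053, plus strand) had 2 reads in each ‘FT’ library and none in ‘CX001’, which is at least 1.85-fold lower when ‘CX001’ is set at 3 reads in all. Around this pair, 3 of 10 neighbours were higher in ‘CX001’ (all genes 16.7%), 6 were within 2-fold and 1 was under the minimum.

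The second CORI3 match had the higher mean in ‘FT’, unlike the pair. *BraA01g014290.3C* (chromosome A01, 7582739 to 7584844, plus strand, coding length 1278 bases) had normalised counts of 69.3, 20.2 and 11.6 in ‘FT’ and 17.0, 0 and 2.14 in ‘CX001’. Libraries were uneven within both lines, and the highest ‘CX001’ library lay above the lowest of ‘FT’. Its means were 33.7 and 6.38, a log2 ratio of -2.40. The ratio was -1.32 without ‘FT’ library 1, -1.82 without ‘CX001’ library 2 and -4.98 without ‘CX001’ library 1. The last rests on 2 reads in ‘CX001’, with the fold to ‘FT’ between 8.49 and 263 by counting error.

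The TAT1 matches are 3 neighbours on chromosome A01, and the middle one was read in ‘FT’ alone. *BraA01g009070.3C* (4479010 to 4480367, minus strand, coding length 948 bases) had 76, 23 and 14 reads in the ‘FT’ libraries and none in the 3 ‘CX001’ libraries. Its ‘FT’ mean of 36.7 stood at least 34.2-fold above the floor of 3 reads in ‘CX001’. ‘FT’ library 1 held most of these reads, and without it the bound was 17.2-fold. Without ‘CX001’ library 1 or library 2 it was 22.8-fold, because a floor over fewer libraries is higher. *BraA01g009080.3C* (4486883 to 4487224) had 5, 2 and 0 reads in ‘FT’ and none in ‘CX001’, and *BraA01g009060.3C* (4476067 to 4478009) had none in ‘FT’ and 0, 1 and 1 in ‘CX001’. RefSeq holds *BraA01g009070.3C* and *BraA01g009080.3C* as 1 pseudogene, LOC103854468, and *BraA01g009060.3C* as a protein-coding gene.

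Of the 10 neighbours of the TAT1 matches, 6 stayed within 2-fold, 2 were lower in ‘CX001’ (all genes 17.4%) and 2 were under the minimum. The lower ones were ethylene-response factor matches, *BraA01g009120.3C* with means of 138 and 32.1 and *BraA01g009130.3C* with 56.1 and 13.1. Together with *BraA03g051170.3C*, 3 of the 14 members lie in 2 RefSeq pseudogenes, and the 14 lie in 12 RefSeq genes.

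In the TAT and TAT2 matches the libraries of the lines overlapped. *BraA05g015170.3C*, a TAT match (chromosome A05, 8752956 to 8754797, plus strand, coding length 1263 bases), had normalised counts of 910.5, 828 and 966 in ‘FT’ and 773, 948 and 836 in ‘CX001’. Libraries of both lines were mixed, and the means of 901 and 852 gave a log2 ratio of -0.08. *BraA02g014250.3C*, the TAT2 match (chromosome A02, 7312206 to 7314398, minus strand), stood at 232, 140 and 234 in ‘FT’ and at 186, 261 and 198 in ‘CX001’. Here too the lines overlapped, with a log2 ratio of 0.09.

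*BraA09g056110.3C*, the other TAT match (chromosome A09, 40280735 to 40282385, plus strand), had 158, 96.3 and 83.3 in ‘FT’ and 89.7, 76.2 and 261 in ‘CX001’. Its ratio followed 1 library, being 0.34 on the log2 scale with all libraries and -0.44 without ‘CX001’ library 3. *BraA03g025500.3C*, the TAT3 match (chromosome A03, 12579986 to 12582239, minus strand), had 1 read in ‘FT’ library 1 and none elsewhere. A single read of this kind does not show whether the gene is used in stems.

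**Figure D3:**
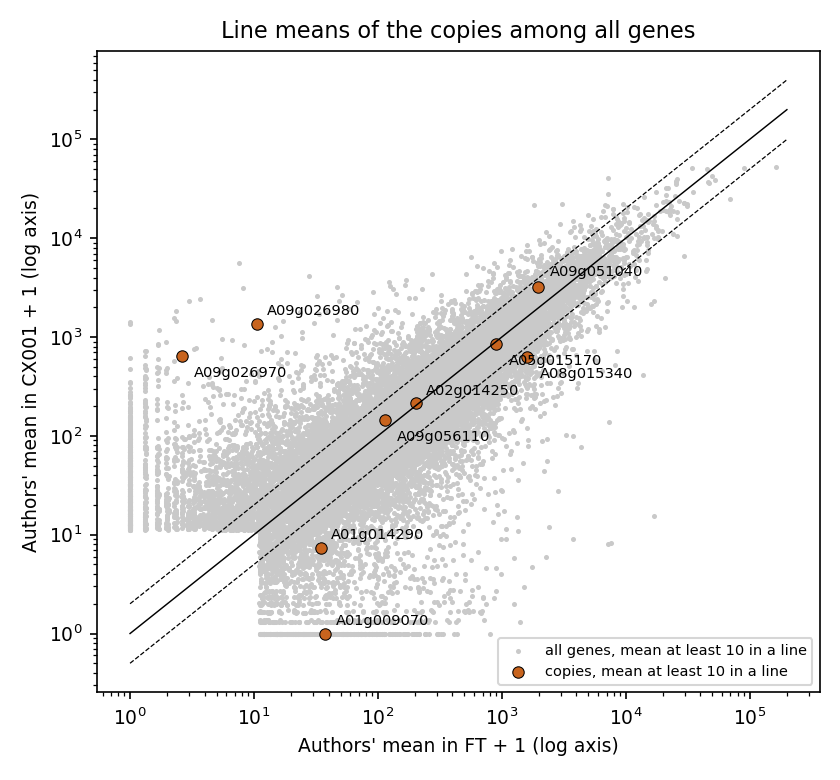
Authors' mean plus 1 in ‘CX001’ against that in ‘FT’ for the 9 members past the minimum (orange) and all other genes past it (grey), both on log axes. The solid line is equality and the dashed lines are 2-fold differences. *BraA09g026980.3C* and *BraA09g026970.3C* lie far above these lines, and *BraA05g015170.3C* and *BraA02g014250.3C* lie on equality.

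Summed over the 14 members, the family stood at 5553, 3916 and 5099 normalised counts in the ‘FT’ libraries and 7149, 6686 and 7404 in the ‘CX001’ libraries. The lines did not overlap in this sum, and the means of 4856 and 7080 differed 1.46-fold. The pair supplied 0.228% of the family in ‘FT’ and 28.3% in ‘CX001’. Over the same comparison *BraA08g015340.3C* went from 33.0% to 8.79%, and *BraA09g051040.3C* held 40.1% and 45.7%. The CORI3 and TAT4 matches other than the pair summed to 3590 in ‘FT’ and 3866 in ‘CX001’, and the TAT and TAT2 matches to 1216 and 1209. These sums add genes of unequal length and follow the longer models.

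**Figure D4:**
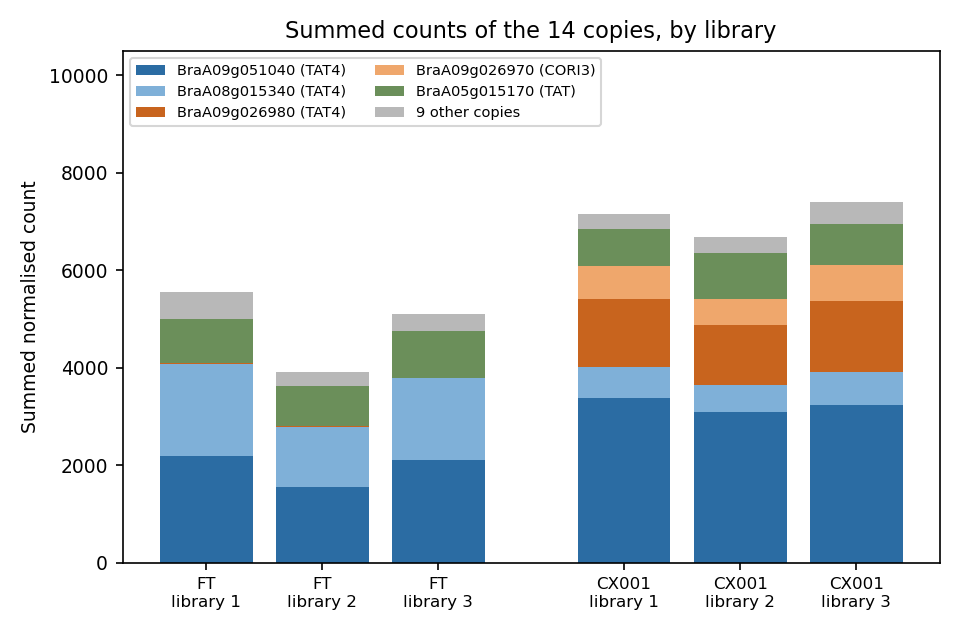
Stacked normalised counts of the members in each library, with the 9 members that are not named in the legend drawn together. Bars start at 0, and the pair *BraA09g026980.3C* and *BraA09g026970.3C* takes a large part of the 3 ‘CX001’ bars and is barely visible in those of ‘FT’.

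‘FT’ library 1 was the highest ‘FT’ library for 6 of the 9 members past the minimum, beside 31.3% of all genes. *BraA09g026980.3C*, *BraA02g014250.3C* and *BraA05g015170.3C* were the exceptions. In ‘CX001’ the highest library was library 1 for 3 members, library 2 for 2 and library 3 for 4. Without ‘FT’ library 1 the number of members over 2-fold apart was again 5 of 9, beside 34.6% of all genes.

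The genes whose means were most like those of the pair had diverse names. Likeness was taken as the distance between genes in log2(mean + 1) over the means of both lines, a measure on 2 points only. Nearest to *BraA09g026980.3C* was *BraA07g035640.3C*, with no match (13.8 and 1258, distance 0.514). Next came the xylosidase match *BraA02g044660.3C* (12.7 and 1963), *BraA10g006950.3C* without a match, the phytoene desaturase match *BraA04g007910.3C* and the tubulin match *BraA01g025030.3C*. Nearest to *BraA09g026970.3C* was *BraA04g016740.3C*, a photosystem I subunit match (1.28 and 570, distance 0.255). It was followed by *BraA05g013680.3C* without a match, the lipid-transfer protein matches *BraA03g045630.3C* and *BraA03g027950.3C*, and the cyclin match *BraA06g010900.3C*.

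The relatives of the family outside the naming rule were mixed as well. SUR1 had 3 matches. *BraA03g054450.3C* was higher in every ‘CX001’ library, at 423, 515 and 445 in ‘FT’ and 1612, 1092 and 984 in ‘CX001’, a log2 ratio of 1.42. *BraA09g012050.3C* was lower in each, with means of 240 and 29.1 and a ratio of -3.04. *BraA07g000220.3C* was within 2-fold, at 1274, 805 and 946 in ‘FT’ and 278, 222 and 1163 in ‘CX001’, so that 1 ‘CX001’ library lay among those of ‘FT’. ISS1, an aminotransferase of aromatic amino acids and methionine in *Arabidopsis*, had 3 matches as well. *BraA02g025980.3C* was level at 854 and 798, *BraA07g043070.3C* was low but higher in ‘CX001’ at 19.6 and 48.2, and *BraA07g025760.3C* was near 0 in both lines.

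The list of tyrosine formation also took in the arogenate dehydratases, which lead to phenylalanine instead. Of its 12 genes past the minimum, 1 was over 2-fold higher, 3 were lower and 8 were within, beside 16.7% higher and 17.4% lower over all genes. The median log2 ratio was -0.08, and 0.01 over all genes. Without the 4 dehydratases, 1 of 8 was higher and 1 lower. The arogenate dehydrogenases, which make tyrosine, were close in both lines. *BraA09g058590.3C* (TYRA2) had means of 992 and 1013 and *BraA03g023150.3C* (TYRA1) 123 and 171. *BraA09g055020.3C*, matching the prephenate aminotransferase that makes arogenate, was higher in ‘CX001’ at 270.5 and 625. The match of AROD2, *BraA03g033370.3C*, from the side branch to phenylalanine, was lower at 95.4 and 22.2, and that of chorismate mutase 3, *BraA07g034260.3C*, at 110 and 51.6.

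Most genes of the steps after tyrosine aminotransferase were within 2-fold. Of 19 genes of tyrosine breakdown and of tocopherol or plastoquinone formation, none was over 2-fold higher (16.7% of all genes were), 4 were lower (17.4%) and 15 were within. The median log2 ratio was -0.64, beside 0.01 over all genes, and the libraries of ‘CX001’ lay below those of ‘FT’ in 11 (29.5% of all genes) and above in 1 (29.7%). The dioxygenase HPPD, which turns 4-hydroxyphenylpyruvate into homogentisate, had a match lower by over 2-fold, *BraA10g005300.3C* with 508 and 244, and another within 2-fold, *BraA09g063880.3C* with 383 and 212. In the breakdown of homogentisate the genes lower by over 2-fold matched HGD, the dioxygenase that opens its ring, and FAH, the last enzyme. *BraA02g014190.3C* (HGD) had means of 340 and 124, and *BraA06g009540.3C* (FAH) 1400 and 585. The GSTZ1 matches of the list were within 2-fold and opposite in direction. *BraA06g039780.3C* had means of 161 and 203, with libraries that overlapped, and *BraA09g023530.3C* 148 and 83.3.

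The fourth lower gene was *BraA10g031820.3C*, matching the phytol kinase PHYK1 that feeds tocopherol formation, with 342 and 155. In each of the lower genes the libraries of the lines were apart. HPT1, the phytyltransferase that commits homogentisate to tocopherol, matched *BraA07g001790.3C*, which stood at 552 and 386 and so within 2-fold. Matches of the homogentisate solanesyltransferase HSTC were also within 2-fold. *BraA05g035000.3C* had 1912 and 2489, with all ‘CX001’ libraries above, and *BraA03g035070.3C* was level at 326 and 319.

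Genes of cysteine and cystine metabolism, cystine being the substrate of CORI3, were mostly within 2-fold. Of 31 past the minimum, 26 were within, 2 higher (16.7% of all genes) and 3 lower (17.4%). The median log2 ratio was -0.34, and 0.01 over all genes. The libraries of ‘CX001’ lay below those of ‘FT’ in 13 (29.5% of all genes) and above in 2 (29.7%). The higher genes were *BraA09g004810.3C*, a CGL match (log2 ratio 1.46), and *BraA06g034250.3C*, a CYSD2 match (1.24). *BraA09g047730.3C*, matching the cystathionine beta-lyase METC, had 397, 359 and 448 normalised counts in ‘FT’ and 23.6, 36.7 and 35.3 in ‘CX001’. The lines were far apart, with a log2 ratio of -3.65. *BraA06g038470.3C*, a match of the cysteine-degrading enzyme DCYD2, was lower as well, with means of 95.3 and 18.3. The METC model above is long, with a coding length of 5307 bases. The other METC match, *BraA04g003510.3C*, was within 2-fold, at a log2 ratio of 0.24.

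Genes of jasmonate formation and response, in which CORI3 of *Arabidopsis* is counted, were often lower in ‘CX001’. Of 66 past the minimum, 38 were lower (17.4% of all genes), 6 higher (16.7%) and 22 within. The median log2 ratio was -1.32, and 0.01 over all genes. The 6 higher genes included LOX2 matches *BraA02g016000.3C* (log2 ratio 3.57) and *BraA07g030990.3C* (2.03). The others matched AOC4 (1.88), OPR1 (1.60), JAR1 (1.51) and THNL2 (2.03). Further LOX2 matches, *BraA07g025400.3C* (-2.39) and *BraA07g031010.3C* (-1.68), and the JAR1 match *BraA03g024150.3C* (-1.27) were lower. The TIFY matches, among which are repressors that jasmonate induces, had 28 genes past the minimum, of which 23 were lower and none higher. The TIF4B and TIF8 matches among them were all within 2-fold. *BraA08g023500.3C* (TIF5A) had 859, 252 and 197 reads in ‘FT’ and 2, 4 and 3 in ‘CX001’. *BraA09g057750.3C*, matching lipoxygenase LOX3, had a mean of 97.2 in ‘FT’ and no read in ‘CX001’, at least 90.7-fold lower against the floor. COI1, the receptor of jasmonate, had 4 matches, of which *BraA03g021140.3C* was level at 347 and 352 and *BraA05g006140.3C* was higher within 2-fold at 423 and 744. The other COI1 matches, *BraA04g028050.3C* with 204 and 67.0 and *BraA04g028040.3C* with 62.1 and 23.3, were lower.

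The jasmonate genes were also the list in which ‘FT’ library 1 stood out. It was the highest ‘FT’ library for 46 of the 66, and the TIFY genes summed to 29103, 17280 and 14662 in the ‘FT’ libraries and to 4539, 4917 and 4616 in those of ‘CX001’. Without that library 34 of 65 genes were lower and 6 higher, where 34.6% of all genes differed by over 2-fold in either direction. The CORI3 match *BraA01g014290.3C* and the TAT1 match *BraA01g009070.3C*, both lower in ‘CX001’, had their highest count in the same library, and its part in their values was not tested. The pair on chromosome A09, which holds the other CORI3 match, was higher in ‘CX001’, and its relation to the jasmonate genes was not tested.

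**Figure D5:**
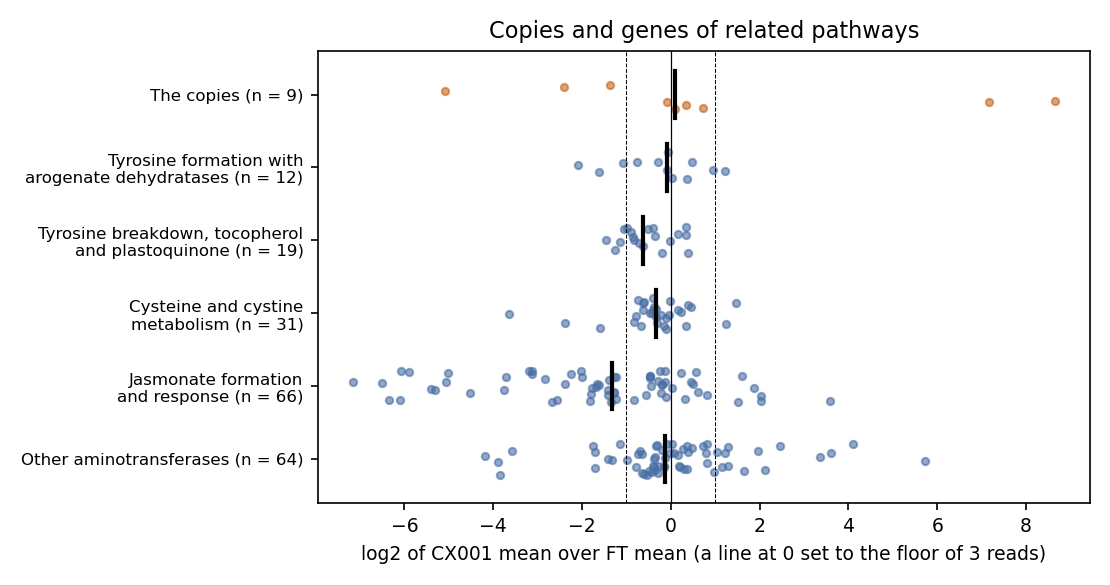
The log2 ratio of ‘CX001’ to ‘FT’ in each gene past the minimum, for the members (orange) and the 5 lists of related pathways (blue), with a line at 0 reads set to 3 reads. Thick bars are medians and dashed lines mark 2-fold, and the jasmonate list has 38 of 66 genes left of the dashed line at -1.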

How the data were processed

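By its header, each signal value used here is the authors' mean for 1 line, and the methods give 3 replicates per line. The fixed but unequal steps per read show that counts were scaled by library. A mean over both lines is also held and was not used. The methods name HISAT2 for alignment, StringTie for expression levels and DESeq2 for the authors' comparison, and the processing notes also name TopHat2. *B. rapa* genome V3.0 is named for the mapping of the mutation and the lookup of genes. Which tool made the counts is not given in the sources used here. The deposited table also holds the authors' fold ratio, log2 fold change and p-value columns, which were not used. The members and gene lists were chosen with earlier results of these data known.

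Each mean under 5000 was split into whole reads per library from its 15 significant digits. In 400 simulated means per line the split was tested and recovered all reads. The genes these were modelled on had means well short of 5000. The ‘CX001’ mean of *BraA09g051040.3C*, 3236, lies above their range. A difference was counted over a 2-fold ratio of line means with 10 or more in the higher line. A line at 0 was set at 3 reads. Intervals (95%, exact binomial on reads, or Poisson) cover counting error only. No count model was run. Lists were matched by description, with the thionin pattern limited to whole names after it had matched methionine enzymes. Named genes were all members, all SUR1 and ISS1 matches (nicotianamine aminotransferase had none), 5 neighbours on each side of clustered members, the 5 genes nearest to each of the pair, and up to 3 per list with the largest ratios and a mean of at least 50. Other genes of these pathways were named for their role, after their values were seen. RefSeq positions served only for names and overlaps. Sequences were not printed, since no sequence table was used here. The software was numba 0.67.0, matplotlib 3.10.9, pandas 2.3.3, scipy 1.17.1 and numpy 2.4.6 under Python 3.11.15.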

Additional observations from a re-analysis of the deposited data

How the results depend on the processing

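The count of 5 members over 2-fold apart became 8 of 14 with no minimum of the line mean and 3 of 7 with a minimum of 50. The median log2 ratio of the members, 0.09, became -0.36 with no minimum and 0.34 with a minimum of 50. Leaving out each library in turn gave counts of 5 to 5 and medians of -0.12 to 0.20. With a 4-fold limit 4 members were counted, and with a pseudocount of 1, scaling by line totals or centring on the median of all genes 5 were. With SUR1 matches added 7 of 12 were counted. Alternatives chosen after seeing the data were the pair as 1 gene (4 of 8), members in RefSeq pseudogenes left out (4 of 8), the lists without ‘FT’ library 1 and tyrosine formation without arogenate dehydratases. Where only the choice of members changed, the share of all genes stays at 34.2%. Without ‘FT’ library 1 it was 34.6% of 25365 genes. It was not taken for the other limits, minimum means, pseudocount, scalings or libraries left out, so nothing is read from those counts. Among 81 single-gene values under other settings, 80 moved by less than the spread, the SD of the log2 ratio over pairings of single libraries. The exception was *BraA01g014290.3C*, at -4.98 without ‘CX001’ library 1. That limit is wide for a change of 1 library or of scaling, so it says little about stability. Signs changed within it, as for *BraA09g056110.3C*, from 0.34 to -0.44 without ‘CX001’ library 3. *BraA02g014250.3C* went from 0.09 to -0.12 without ‘FT’ library 2. Scaling by totals shifted every log2 ratio by -0.05. No paired analysis was possible because the table does not name its libraries and no test was run. The 5 members under the minimum of 10 had at most 12 reads over a line.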

Other observations

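Of 64 aminotransferases outside the tyrosine family that passed the minimum, 13 were over 2-fold higher in ‘CX001’ (16.7% of all genes were), 10 were lower (17.4%) and 41 were within. Their median log2 ratio was -0.14, and that of all genes 0.01. *BraA06g033980.3C*, matching the photorespiratory glutamate:glyoxylate aminotransferase GGT2, had no read in ‘FT’ and 64, 59 and 47 reads in the ‘CX001’ libraries, at least 53.0-fold higher against a floor of 3 reads. *BraA03g042430.3C*, matching ALD1, the aminotransferase of pipecolate synthesis in plant defence, had 106, 44 and 33 reads in ‘FT’ and 0, 8 and 2 in ‘CX001’. *BraA05g027600.3C*, matching the methionine aminotransferase BCAT4 of glucosinolate synthesis, had normalised counts of 8.66, 18.3 and 67.5 in ‘FT’ and 36.8, 0 and 1578 in ‘CX001’. Its ‘CX001’ mean of 538 thus came from library 3 nearly alone, and the lines overlapped.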
